A study of Mus musculus with 24 samples.

Results

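A set of 10 genes was followed that encode enzymes placing or removing methyl groups on histone H3, or core subunits of such an enzyme. The stages covered oocyte maturation and the first cell cycles of the mouse embryo, with and without the oocyte protein NLRP14. The genes were listed by name, with earlier results of these data known: Ezh2, Eed and Suz12 of Polycomb repressive complex 2 (PRC2), the H3K4 writer Kmt2b, the H3K4 erasers Kdm5a, Kdm5b and Kdm1b, the H3K9 writers Setdb1 and Ehmt2, and the H3K27 eraser Kdm6b. All 10 were found among the 55487 genes of the deposited tables. The study compared Nlrp14 knockout mice with wild-type mice in the setting of female infertility and early embryo arrest. Its 8 groups were knockout and wild type at the germinal vesicle stage (GV oocytes), at metaphase II (MII oocytes), at the late pronuclear stage (PN5 zygotes) and at the 2-cell stage. Each group had 3 libraries labelled as biological replicates, and each library was made from a pool of 5 oocytes or embryos, so that p-values measure the spread between pools. The strain, the age of the females, the deleted part of Nlrp14 and the genotype of the sires are not stated in the labels used here. Because each pool was sequenced whole, fewer surviving cells and less RNA per cell cannot be told apart.

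PRC2 methylates lysine 27 of histone H3 (H3K27). EZH2 is its catalytic subunit, EED reads the mark and stimulates EZH2, and SUZ12 holds the core together. In mouse oocytes PRC2 lays down H3K27 methylation that is carried into the embryo, where it can silence the maternal copy of some genes. Methylation of lysine 4 (H3K4) is written in growing mouse oocytes mainly by KMT2B. It forms broad domains there, which KDM5A and KDM5B remove when the embryo starts its own transcription at the 2-cell stage. KDM1B, a flavin-dependent demethylase of H3K4, is needed in mouse oocytes for DNA methylation at many imprinted genes. SETDB1 and EHMT2 (also called G9a) methylate lysine 9 (H3K9), a mark of silent chromatin and of silenced retrotransposons, and KDM6B removes methyl groups from H3K27.

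Transcript levels are given in FPKM, fragments counted per kilobase of transcript and scaled to the size of the library, so that levels of genes of unequal length can be compared within a library. The deposited values implied 7.65 to 12.3 M fragments per library. Nlrp14 itself was at 22.2 to 39.2 FPKM in knockout GV oocytes, against 1876 to 2014 FPKM in wild-type GV oocytes, and at 17.2 to 36.2 FPKM in knockout 2-cell embryos, against 90.2 to 129 FPKM in wild-type 2-cell embryos. At no stage did the knockout and wild-type values of Nlrp14 overlap. All 10 oocyte markers that were looked at reached 1 FPKM in every library. All 8 markers of 2-cell embryos did so in every 2-cell library of either genotype. Knockout GV replicate 3 and wild-type PN5 replicate 1 had the steepest fall of level with transcript length (slopes of log2 level on log2 length of -0.13 and -0.17). The other GV libraries had slopes of 0.00 to 0.04 and the other wild-type PN5 libraries of -0.07 and 0.02. Knockout MII replicates 2 and 3 (-0.10 and -0.04) also had negative slopes, the knockout PN5 libraries had positive ones (0.06 to 0.09), and the 2-cell libraries ran from -0.03 to 0.05. Genotype differences at GV and PN5 are also given without the steepest libraries.

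The knockout differed from wild type at the 2-cell stage for 5 of the 9 members that could be tested. Kdm1b and Eed rose, and Kdm5b, Setdb1 and Kdm5a fell. Without any 1 of the 6 libraries 2 to 3 members passed, with Kdm1b and Kdm5b among them each time. Of all tested genes 40.1 to 49.8% passed in those fits. A gene was tested where it had at least 1 FPKM in at least 3 of the libraries compared, and it was called where the p of limma's moderated test on log2(FPKM + 1), adjusted over all tested genes, was under 0.05. In 2-cell embryos 54.3% of all 13828 genes tested were called (14.0% higher and 40.3% lower), so the share of members called was close to that of the whole table. That split depends on the scaling: 3401 genes were higher and 3668 lower with libraries scaled to the same median ratio, and 3431 and 3625 with the length trend removed. The members' median log2 difference was 0.17, against -0.44 for all tested genes.

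No member was called at the 3 earlier stages with limma. At GV 0 of 7 tested members passed, where 0.043% of all genes did, and no member had an unadjusted p under 0.05, against 11.8% of all genes. At MII 0 of 8 passed, where 2.28% of all genes did. There 2 members had an unadjusted limma p under 0.05, Kdm5a (adjusted p = 0.086) and Setdb1 (adjusted p = 0.059), against 29.1% of all genes. At PN5 0 of 7 passed, where 6.1% of all genes did. There 1 member, Kdm1b, had an unadjusted limma p under 0.05 (adjusted p = 0.082), against 31.3% of all genes. The log2 differences lay between -0.55 and 0.47 at GV, between -0.74 and 0.58 at MII and between -0.23 and 0.97 at PN5. Their medians were -0.07 for the members and -0.08 for all tested genes at GV, -0.17 and -0.18 at MII, and 0.37 and 0.01 at PN5.

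Without knockout replicate 3 the log2 differences at GV were -0.18 for Ezh2, -0.11 for Eed, 0.28 for Suz12, 0.12 for Kmt2b, 0.73 for Kdm1b, -0.24 for Setdb1 and 0.23 for Kdm6b. Kdm1b alone passed there, where 8.97% of all genes did. Without wild-type replicate 1 the log2 differences at PN5 were 0.04 for Ezh2, -0.13 for Eed, -0.42 for Suz12, 0.06 for Kmt2b, 0.75 for Kdm1b, -0.40 for Setdb1 and 0.26 for Kdm6b, and no member passed, where 6.72% of all genes did. With that library they were 0.23 for Ezh2, -0.23 for Eed, 0.38 for Suz12, 0.37 for Kmt2b, 0.97 for Kdm1b, -0.11 for Setdb1 and 0.65 for Kdm6b, so that every value but that of Eed was lower without it.

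**Figure D1:**
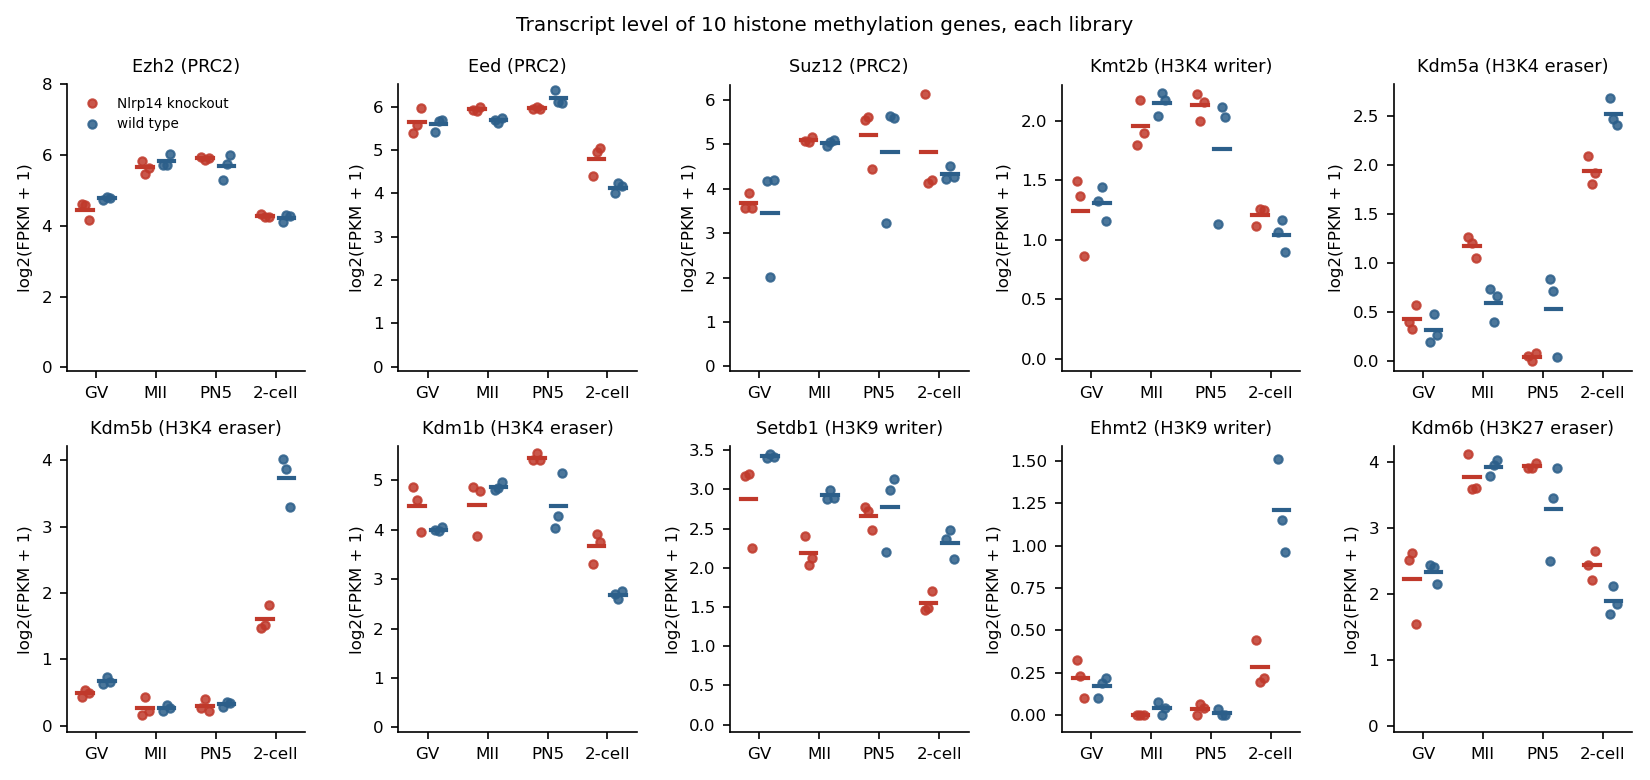
Level of each of the 10 genes as log2(FPKM + 1), vertical axis, in every library at GV, MII, PN5 and the 2-cell stage, horizontal axis. Points are libraries (red, Nlrp14 knockout, left; blue, wild type, right; 3 per group) and short lines are group means. Kdm5b is near the bottom of its axis until the 2-cell stage, where the wild-type libraries sit at 8.77 to 15.2 FPKM and the knockout libraries at 1.78 to 2.54 FPKM.

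Kdm5b, the H3K4 demethylase, had the largest log2 difference of the 9 tested members. In 2-cell embryos it had 1.78, 1.86 and 2.54 FPKM in the knockout libraries, against 15.2, 13.6 and 8.77 FPKM in the wild-type libraries. The groups were far from overlapping, and the wild-type mean was 6.07 times the knockout mean. The log2 difference was -2.12 (SE 0.26, adjusted p = 0.00052). At the earlier stages Kdm5b was hardly detected in either genotype: the group means were 0.405 FPKM in knockout and 0.594 FPKM in wild-type GV oocytes, 0.211 and 0.205 FPKM at MII, and 0.23 and 0.256 FPKM at PN5. It was not tested at those stages because it did not reach the minimum level. The call at the 2-cell stage stood without each library in turn (adjusted p 0.000696 to 0.00352) and under all 8 other settings (log2 -2.52 to -1.67).

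Kdm5a, the closely related H3K4 demethylase, was also low before the 2-cell stage and lower in the knockout at that stage. It had 3.26, 2.51 and 2.77 FPKM in knockout 2-cell embryos, against 5.44, 4.53 and 4.32 FPKM in wild-type 2-cell embryos. The groups did not overlap, and the log2 difference was -0.58 (SE 0.22, adjusted p = 0.048). This call was lost without any 1 of the 6 libraries (adjusted p 0.057 to 0.148) and with libraries scaled to the same median ratio (log2 -0.15, adjusted p = 0.57). It held in 2 of 7 other settings, over which the adjusted p ran from 0.0063 to 0.57. At MII the order was the other way round, with 1.40, 1.31 and 1.07 FPKM in knockout oocytes, against 0.661, 0.317 and 0.584 FPKM in wild-type oocytes. That log2 difference of 0.58 did not pass the test (adjusted p = 0.086), and the gene entered that fit only through its knockout libraries, the group where it was higher. In PN5 zygotes Kdm5a had 0.0387, 0 and 0.0566 FPKM in the knockout libraries, against 0.791, 0.636 and 0.031 FPKM in the wild-type libraries. Wild-type replicate 3 thus lay among the knockout values, and the gene was too low there to be tested. Without strand information, reads from the 251 bases of exon that Kdm5a shares with Ccdc77 on the other strand cannot be assigned. Those bases make up 1.77% of the Kdm5a exons. Ccdc77 was at 2.77 FPKM in knockout and 5.83 FPKM in wild-type 2-cell embryos, the same order as Kdm5a. At MII it was at 1.09 and 1.75 FPKM, the reverse order, and at PN5 at 1.44 and 1.47 FPKM.

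Kdm1b, the H3K4 demethylase of growing oocytes, moved in the opposite direction to Kdm5b in 2-cell embryos. It had 8.94, 14.1 and 12.4 FPKM in the knockout libraries, against 5.48, 5.05 and 5.78 FPKM in the wild-type libraries. All knockout libraries were above all wild-type libraries, and the knockout mean was 2.18 times the wild-type mean (log2 0.98, SE 0.23, adjusted p = 0.0075). The call stood without each library in turn and under all 8 other settings (log2 0.98 to 1.51). In PN5 zygotes Kdm1b had 41.3, 45.6 and 41.4 FPKM in the knockout libraries, against 15.4, 18.2 and 34.2 FPKM in the wild-type libraries. The groups did not overlap, but the wild-type libraries were spread widely and the log2 difference of 0.97 did not pass (adjusted p = 0.082). Without wild-type replicate 3, the highest of its group, it did pass (log2 1.30, adjusted p = 0.011), in a fit where 32.9% of all genes did, and without replicate 1 it did not (log2 0.75, adjusted p = 0.11). In GV oocytes Kdm1b had 28.0, 23.4 and 14.6 FPKM in the knockout libraries, against 14.9, 14.7 and 15.5 FPKM in the wild-type libraries. Knockout replicate 3, the library with the length trend, was the lowest of the 6, and without it the log2 difference of 0.47 became 0.73 with an adjusted p of 0.022. Kdm1b shares 505 bases of exon (9.19% of its exons) with Dek, a chromatin protein gene on the other strand. Dek was at 80.4 FPKM in knockout and 91.2 FPKM in wild-type 2-cell embryos, the reverse order of Kdm1b, but at 72.4 FPKM in knockout and 57.5 FPKM in wild-type zygotes, the same order as Kdm1b.

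Kmt2b, the H3K4 writer of the growing oocyte, was low throughout. It had 1.16, 1.39 and 1.38 FPKM in knockout 2-cell embryos, against 1.10, 1.24 and 0.858 FPKM in wild-type 2-cell embryos. The groups overlapped and the difference did not pass (log2 0.17, adjusted p = 0.52), although with the length trend removed it did (log2 0.60, adjusted p = 0.032). The group means were 1.40 ± 0.515 FPKM in knockout and 1.49 ± 0.243 FPKM in wild-type GV oocytes, 2.90 ± 0.541 and 3.44 ± 0.306 FPKM at MII, and 3.38 ± 0.345 and 2.53 ± 1.17 FPKM at PN5 (SD, n = 3 each). The spread at PN5 came from wild-type replicate 1 at 1.19 FPKM, the wild-type library with the steepest length trend, and without it the log2 difference of 0.37 became 0.06.

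The H3K9 writer Setdb1 fell in knockout 2-cell embryos. It had 1.75, 1.79 and 2.27 FPKM in the knockout libraries, against 4.17, 4.58 and 3.31 FPKM in the wild-type libraries, with no overlap. The log2 difference was -0.77 (SE 0.22, adjusted p = 0.018). The call was lost without wild-type replicate 1 or 2 or knockout replicate 1 or 2 (adjusted p 0.055 to 0.062). It was also lost with median-ratio scaling (log2 -0.36) and with the length trend removed (log2 -0.28), and stood in 5 of 7 other settings. In MII oocytes Setdb1 had 4.30, 3.08 and 3.36 FPKM in the knockout libraries, against 6.35, 6.97 and 6.42 FPKM in the wild-type libraries. These groups did not overlap either, and the log2 difference of -0.74 fell just short of the threshold (adjusted p = 0.059; without knockout replicate 1, log2 -0.84 and adjusted p = 0.0064, in a fit where 36.2% of all genes passed). In GV oocytes the values were 8.02, 8.14 and 3.75 FPKM in knockout libraries, against 9.56, 9.95 and 9.60 FPKM in wild-type libraries, with the lowest value in knockout replicate 3, without which the log2 difference of -0.55 became -0.24. In PN5 zygotes the groups overlapped, at 5.87, 5.59 and 4.58 FPKM in knockout and 3.59, 6.93 and 7.74 FPKM in wild type. Setdb1 shares 75 bases of exon with Cers2 and 249 with the unclassified Gm37500, both on the other strand. Cers2 was at 1.39 FPKM in knockout and 5.25 FPKM in wild-type 2-cell embryos, the same order as Setdb1. It kept that order at MII (15.3 and 19.1 FPKM) and had the reverse order at GV (7.22 and 6.04 FPKM) and PN5 (5.39 and 2.52 FPKM).

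Ehmt2, which encodes the other H3K9 methyltransferase of the set, was at or near 0 until the 2-cell stage. No library of GV, MII or PN5 exceeded 0.252 FPKM, where a single fragment on its principal transcript was worth 0.0202 to 0.0325 FPKM, and all 3 knockout MII libraries were at 0. In 2-cell embryos it had 0.36, 0.15 and 0.16 FPKM in the knockout libraries, against 1.85, 1.22 and 0.95 FPKM in the wild-type libraries. The groups did not overlap. Only 2 libraries reached 1 FPKM, so Ehmt2 was not tested in the main comparison. With no minimum level its log2 difference was -0.92 (adjusted p = 0.023).

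Among the PRC2 genes, Eed rose in knockout 2-cell embryos and Ezh2 and Suz12 did not pass the test. Eed had 20.2, 30.1 and 32.0 FPKM in the knockout libraries, against 15.1, 17.8 and 16.9 FPKM in the wild-type libraries. The groups did not overlap, and the log2 difference was 0.67 (SE 0.23, adjusted p = 0.036). The call was lost without any wild-type library or without knockout replicate 2 or 3 (adjusted p 0.063 to 0.127) and with TPM (adjusted p = 0.069), and held in 5 of 8 other settings. At PN5 the order was reversed, with 60.8, 63.0 and 60.4 FPKM in knockout zygotes, against 83.1, 67.9 and 66.9 FPKM in wild-type zygotes. At MII it was 59.9, 58.9 and 63.2 FPKM in knockout oocytes, against 50.9, 48.7 and 52.1 FPKM in wild-type oocytes. Neither of these earlier differences passed (adjusted p 0.41 and 0.22), although the groups did not overlap at either stage. In GV oocytes Eed had 41.3, 46.6 and 61.8 FPKM in the knockout libraries, against 41.9, 49.7 and 51.0 FPKM in the wild-type libraries, with full overlap.

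Ezh2, the catalytic subunit, had nearly the same level in both genotypes at the 2-cell stage, with 19.2, 18.2 and 18.2 FPKM in knockout embryos, against 16.4, 18.8 and 18.4 FPKM in wild-type embryos. The log2 difference was 0.05 (SE 0.18, adjusted p = 0.83). With median-ratio scaling, which sets the median gene near 0, it was 0.57 (adjusted p = 0.035), and with the length trend removed 0.55 (adjusted p = 0.038). Its only stage without overlap was GV, with 23.4, 23.2 and 16.9 FPKM in knockout oocytes, against 25.7, 27.3 and 26.6 FPKM in wild-type oocytes. The group means were 49.6 ± 6.63 FPKM in knockout and 56.4 ± 7.26 FPKM in wild-type MII oocytes and 59.4 ± 1.74 and 51.6 ± 12.4 FPKM at PN5 (SD, n = 3 each).

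Suz12, the scaffold subunit, varied widely between replicates. It had 69.2, 16.5 and 17.3 FPKM in knockout 2-cell embryos, against 17.5, 21.7 and 18.3 FPKM in wild-type 2-cell embryos. A single knockout library set the log2 difference of 0.49 (SE 0.49, adjusted p = 0.43), which was -0.17 without it. In GV oocytes Suz12 had 10.8, 14.0 and 10.7 FPKM in the knockout libraries, against 16.9, 3.05 and 17.2 FPKM in the wild-type libraries. At PN5 it had 45.4, 47.5 and 20.8 FPKM in knockout zygotes, against 8.36, 48.6 and 47.0 FPKM in wild-type zygotes. Wild-type replicate 2 at GV, and knockout replicate 3 and wild-type replicate 1 at PN5, lay far below the other libraries of their groups. The MII libraries lay close together, at 32.0 to 34.8 FPKM in knockout and 29.9 to 33.1 FPKM in wild type.

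Kdm6b, the H3K27 demethylase, lay above wild type in all knockout 2-cell libraries, with 4.43, 3.62 and 5.26 FPKM in knockout embryos, against 2.25, 3.33 and 2.59 FPKM in wild-type embryos. The log2 difference of 0.55 did not pass (SE 0.24, adjusted p = 0.079), but it did with median-ratio scaling (log2 0.96, adjusted p = 0.0085) and with the length trend removed (log2 1.03, adjusted p = 0.0057). At PN5 it had 14.1, 14.0 and 14.9 FPKM in knockout zygotes, against 4.68, 9.92 and 14.0 FPKM in wild-type zygotes. The knockout libraries lay close together and the wild-type libraries were spread widely. The log2 difference of 0.65 did not pass. It was 0.26 (adjusted p = 0.41) without wild-type replicate 1, and 0.96 (adjusted p = 0.046) without wild-type replicate 3, in a fit where 32.9% of all genes passed. The group means were 3.93 ± 1.75 FPKM in knockout and 4.06 ± 0.548 FPKM in wild-type GV oocytes, and 12.9 ± 3.01 and 14.2 ± 1.29 FPKM at MII (SD, n = 3 each).

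Over the 10 genes, tested or not, knockout and wild-type values did not overlap for 3 at GV (Ezh2, Kdm5b and Setdb1, all lower in knockout), where 23.0% of all tested genes did not. At MII they did not overlap for 3 (Eed and Kdm5a higher, Setdb1 lower), against 34.5% of all tested genes. At PN5 they did not overlap for 2 (Kdm1b higher, Eed lower), against 40.1% of all tested genes. In 2-cell embryos they did not overlap for 7, with Eed, Kdm1b and Kdm6b higher and Kdm5a, Kdm5b, Setdb1 and Ehmt2 lower, where 62.0% of all tested genes did not. Kdm5b at GV and Ehmt2 at the 2-cell stage were not among the tested genes that these shares cover.

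**Figure D2:**
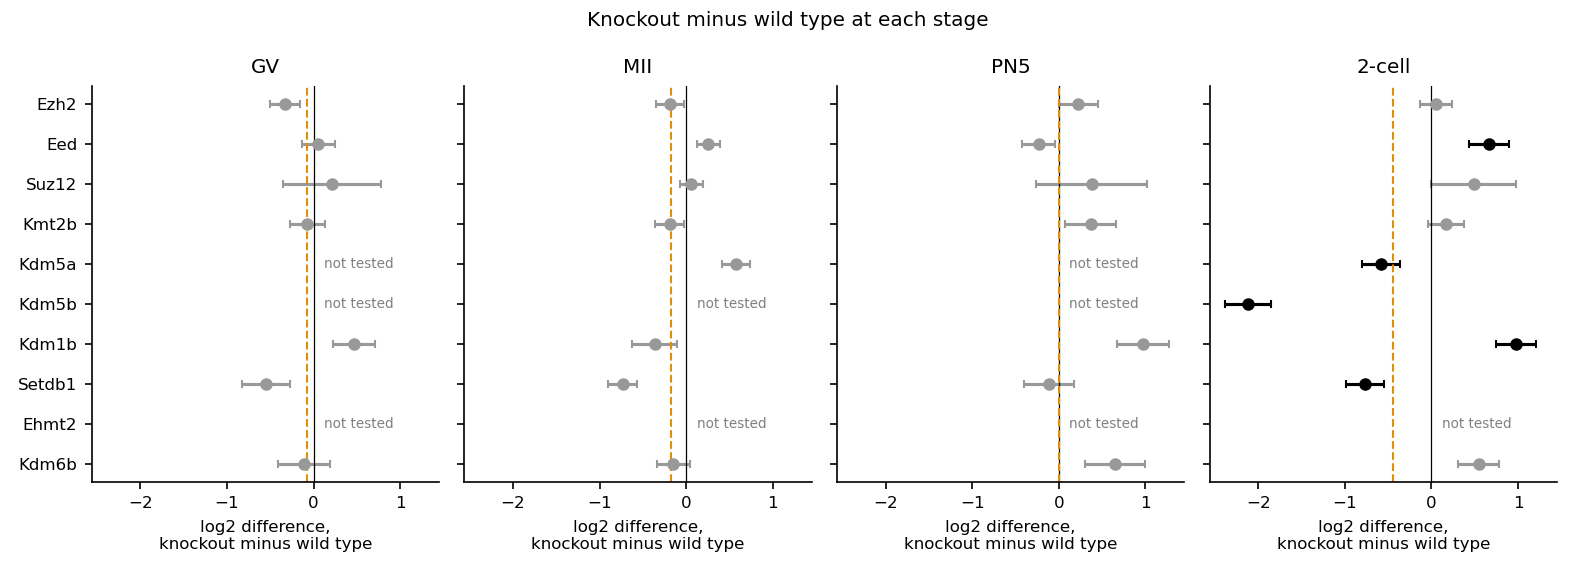
Log2 difference of FPKM + 1, knockout minus wild type, horizontal axis, for each of the 10 genes at the 4 stages. Points are estimates and bars 1 standard error (3 libraries per group), black where the adjusted p was under 0.05 and grey otherwise, and the dashed line is the median of all tested genes. Black points appear at the 2-cell stage only, with Kdm5b at -2.12 and Kdm1b at 0.98.

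The median of all genes at the 2-cell stage lay at -0.44 in FPKM and at -0.02 after median-ratio scaling, so differences are also given against that median. On the rescaled values Kdm1b (1.45), Eed (1.19), Kdm6b (0.96) and Ezh2 (0.57) were called higher in knockout 2-cell embryos and Kdm5b (-1.67) lower. Kdm5a (-0.15) and Setdb1 (-0.36) were no longer called. The count of 5 members was the same in both scalings, with 3 members shared. Of all tested genes 54.3% were called in FPKM and 51.9% with median-ratio scaling. With the length trend removed 6 members were called (51.1% of all tested genes), Ezh2, Eed, Kmt2b, Kdm1b and Kdm6b higher and Kdm5b lower. Kdm5b and Kdm1b kept their direction and their call in every setting and without every single library.

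**Figure D3:**
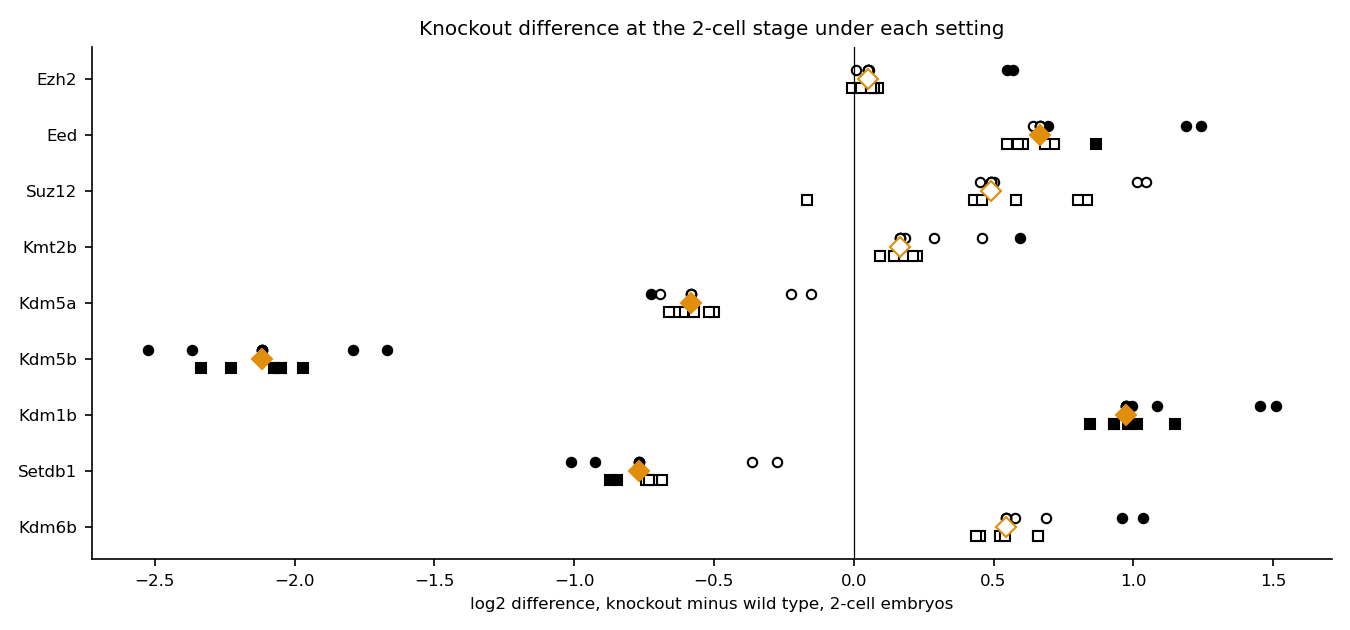
Log2 difference of FPKM + 1, knockout minus wild type, at the 2-cell stage for the 9 tested genes. Orange diamonds are the values reported, circles above them the other settings and squares below them the fits without 1 library; filled symbols had an adjusted p under 0.05. Kdm5b (-2.52 to -1.67 over settings) and Kdm1b (0.98 to 1.51) are filled throughout, and Suz12 has a square at -0.17.

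The start regions of the 4 called members that RefSeq promoters (GRCm38.p6) cover are shown because these genes moved in opposite directions in knockout 2-cell embryos. Each is 300 bases long, most of them before the annotated start, and is written 5′ to 3′ on the gene's strand. Capitals mark the GC box (GGGCGG), the CCAAT box (CCAAT), the TATA box (TATAAA) and the letters GGATTA, found on either strand. The first pair fell in knockout 2-cell embryos and the second pair rose.
Kdm5b, chr1:134559928-134560227, plus strand: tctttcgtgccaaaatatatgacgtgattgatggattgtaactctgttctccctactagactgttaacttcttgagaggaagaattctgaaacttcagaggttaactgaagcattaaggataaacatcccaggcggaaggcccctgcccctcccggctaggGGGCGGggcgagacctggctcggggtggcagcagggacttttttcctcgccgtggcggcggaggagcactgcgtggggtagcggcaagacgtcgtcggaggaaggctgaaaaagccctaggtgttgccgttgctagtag
Setdb1, chr3:95357153-95357452, minus strand: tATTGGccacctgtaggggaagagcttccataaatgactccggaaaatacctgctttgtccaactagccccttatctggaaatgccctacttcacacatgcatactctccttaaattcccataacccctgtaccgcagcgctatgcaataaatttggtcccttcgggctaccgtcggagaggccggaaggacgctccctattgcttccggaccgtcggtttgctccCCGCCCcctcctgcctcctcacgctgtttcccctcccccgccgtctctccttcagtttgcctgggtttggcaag
Eed, chr7:89980927-89981226, minus strand: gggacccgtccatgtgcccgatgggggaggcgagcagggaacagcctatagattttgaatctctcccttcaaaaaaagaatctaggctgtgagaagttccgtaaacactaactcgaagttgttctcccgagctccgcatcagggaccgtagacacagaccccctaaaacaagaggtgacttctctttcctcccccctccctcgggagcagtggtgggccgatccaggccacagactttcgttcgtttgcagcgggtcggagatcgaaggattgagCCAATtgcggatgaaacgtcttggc
Kdm1b, chr13:47043249-47043548, plus strand: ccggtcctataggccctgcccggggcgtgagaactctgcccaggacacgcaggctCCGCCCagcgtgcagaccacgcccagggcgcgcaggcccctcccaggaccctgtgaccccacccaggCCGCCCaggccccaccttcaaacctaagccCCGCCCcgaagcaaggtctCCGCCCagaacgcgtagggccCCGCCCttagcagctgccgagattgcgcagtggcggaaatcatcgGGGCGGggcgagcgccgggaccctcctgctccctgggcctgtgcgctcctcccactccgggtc
Kdm1b held 6 GC boxes, Kdm5b and Setdb1 held 1 each and Eed none, where 35.7% of all 32851 promoters held at least 1. A CCAAT box was found in Setdb1 and Eed (37.4% of all promoters). No TATA box (13.6% of all promoters) and no GGATTA (7.06%) was found in these windows. The 4 windows had 15 to 26 CpG dinucleotides, above the median of 7 over all promoters.

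Between GV and MII, when transcription is silent and stored transcripts are recruited by lengthening of their poly(A) tails, 5 of the 10 members rose in relative level in each genotype, 4 of them in both. Kdm5b and Ehmt2, which were too low to be tested, had all MII libraries below all GV libraries in either genotype. So did 6195 of 11610 tested genes in wild type and 5283 of 10757 in knockout, counts that do not cover these 2 genes. Their levels were low and the gap could be small. For Kdm5b in knockout, the highest MII value was 0.345 FPKM and the lowest GV value 0.348 FPKM. In knockout oocytes 5 of 8 tested members rose and 0 fell (of all genes 69.0% were called, 20.8% higher and 48.2% lower, and with median-ratio scaling 32.6% and 39.7%): Suz12, Kdm6b, Ezh2, Kdm5a and Kmt2b. In wild-type oocytes 5 of 7 rose and 1 fell (of all genes 84.0% were called, 31.1% higher and 52.8% lower, and with median-ratio scaling 39.1% and 46.4%): Kdm6b, Suz12, Ezh2, Kdm1b and Kmt2b rose and Setdb1 fell. The log2 differences, MII minus GV, were 1.54 in knockout and 1.59 in wild type for Kdm6b, 1.42 and 1.57 for Suz12, 1.20 and 1.05 for Ezh2, and 0.71 and 0.84 for Kmt2b. Setdb1 had a log2 difference of -0.50 in wild type (adjusted p = 0.00094), which was -0.16 and no longer passed with median-ratio scaling (adjusted p = 0.14) and did not pass with all 24 libraries in one fit (adjusted p = 0.080). In knockout its log2 difference of -0.69 did not pass (adjusted p = 0.075), and without knockout GV replicate 3 it did (adjusted p = 0.0039). With median-ratio scaling Eed passed in both genotypes (log2 0.85 in knockout and 0.47 in wild type). Kdm1b rose in wild type (log2 0.86), and in knockout its log2 difference of 0.03 did not pass. Leaving out single libraries ended the call of Suz12 in wild type without any 1 of the MII libraries (adjusted p 0.053 to 0.066). It also ended the call of Kmt2b in knockout without GV replicate 2 or 3 or MII replicate 2 or 3 (adjusted p 0.054 to 0.081). Kdm5a entered the knockout fit only through its MII libraries, so that it had to differ, and without 1 of them it was not tested. This left 3 members called without MII replicate 2 or 3, where 65.2% and 61.5% of all genes were called. The difference between genotypes in this step passed for 0 of 8 members, where 0.12% of all genes did, with Kdm5a and Kdm1b at an unadjusted p under 0.05 (0.042 and 0.049), against 6.64% of all genes.

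Tail lengthening acts through cytoplasmic polyadenylation elements near the end of a transcript, and the library kit primes from poly(A) tails, so a longer tail and more RNA cannot be told apart in these values. The last 100 bases of each member's principal transcript (GENCODE M21, GRCm38) were searched for such an element (TTTTAT or TTTTAAT) and for a polyadenylation signal (AATAAA or ATTAAA). An element was found in 3 members, shown with the element in capitals, and 16.5% of 21758 protein-coding genes held one.
Eed, chr7:89954703-89954732, minus strand: aagctgtgttatTTTTATtgtgatggaaac
Kmt2b, chr7:30568905-30568934, minus strand: ttctatgcacttTTTTATttaagagggcgg
Setdb1, chr3:95323553-95323582, minus strand: gacacagtcatgTTTTATttaacctttaat
Of these, Kmt2b rose between GV and MII in wild type, Setdb1 fell in FPKM but did not pass with median-ratio scaling, and Eed did not pass in FPKM but did with that scaling. Ezh2 and Kdm6b, which rose, held a polyadenylation signal (74.1% of all genes) and no element in that window. So did Suz12, which also rose in both genotypes, and Kdm5a, which was called higher in knockout only. Kdm1b, which was called higher in wild type only, held neither. Ezh2 and Kdm6b are shown for comparison with the signal in capitals.
Ezh2, chr6:47530152-47530181, minus strand: tatttaataaccAATAAAcatactggcata
Kdm6b, chr11:69398514-69398543, minus strand: aatattATTAAAAATAAAagcaggaaaaaa

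Between MII and PN5 few members changed. In knockout 2 of 8 passed (32.8% of all genes): Kdm1b rose (log2 0.95, adjusted p = 0.027) and Kdm5a fell (log2 -1.13, adjusted p = 0.0014). The call of Kdm1b was lost without any 1 of the knockout PN5 libraries (adjusted p 0.073 to 0.089). Kdm5a again entered only through its MII libraries, and without MII replicate 2 or 3 it was not tested. In those fits 1 member, Kdm1b, passed, where 22.7% and 16.2% of all genes did. In wild type 0 of 7 passed with limma (14.2% of all genes), with Eed at an unadjusted p of 0.019, a p under 0.05 being reached by 31.2% of all genes. Without wild-type PN5 replicate 3 (2632 of 8781 genes called) Eed (log2 0.56, adjusted p = 0.041) and Kdm1b (log2 -0.71, adjusted p = 0.026) passed, and without wild-type PN5 replicate 1 (19.3% called) Suz12 passed (log2 0.58, adjusted p = 0.021). The difference between genotypes in this step passed for 0 of 8 members (7.45% of all genes). Kdm5a (-1.06, unadjusted p = 0.0043, adjusted p = 0.051) and Kdm1b (1.34, unadjusted p = 0.008, adjusted p = 0.058) and Eed (unadjusted p of 0.028) were under 0.05 before adjustment, as were 38.6% of all genes. Kdm5a entered this fit only through its knockout MII libraries. Without wild-type PN5 replicate 3, 4 members passed (Kdm5a, Kdm1b, Kdm6b and Eed), where 41.4% of all genes did. Without knockout MII replicate 1 Kdm1b passed, where 26.5% of all genes did.

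Between PN5 and the 2-cell stage, when most maternal transcripts are cleared and the embryonic genome is switched on, the members divided into those that rose and those that fell. In knockout 8 of 9 passed, 2 higher and 6 lower (of all genes 70.6%, with 43.8% higher and 26.8% lower, and with the length trend removed 30.3% and 34.4%): Kdm5a and Kdm5b rose, and Ezh2, Eed, Kmt2b, Kdm1b, Setdb1 and Kdm6b fell. In wild type 6 of 9 passed, 2 higher and 4 lower (of all genes 62.8%, with 48.0% higher and 14.8% lower, and with the length trend removed 32.1% and 33.3%): Kdm5a and Kdm5b rose, and Ezh2, Eed, Kdm1b and Kdm6b fell. Kdm5b rose by a log2 difference of 1.31 in knockout embryos (SE 0.16) and of 3.40 in wild-type embryos (SE 0.27). Kdm5a rose by 1.89 in knockout and by 1.99 in wild type on the same scale. Both entered these fits only through their 2-cell libraries, so that they had to differ. Eed fell by 1.16 in knockout and by 2.06 in wild type, Kdm1b fell by 1.79 in each, Ezh2 fell by 1.63 and by 1.45, and Kdm6b fell by 1.50 and by 1.40. Without wild-type 2-cell replicate 1, 3 members passed in wild type, where 37.5% of all genes did. Kdm5a and Kdm5b then had too few libraries above the minimum level to be tested, and Kdm6b did not pass (adjusted p = 0.053). Without wild-type PN5 replicate 1 all 9 passed, among them Suz12 (log2 -1.28), Kmt2b (log2 -1.03, adjusted p = 0.0053) and Setdb1 (log2 -0.74), where 64.9% of all genes did.

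**Figure D4:**
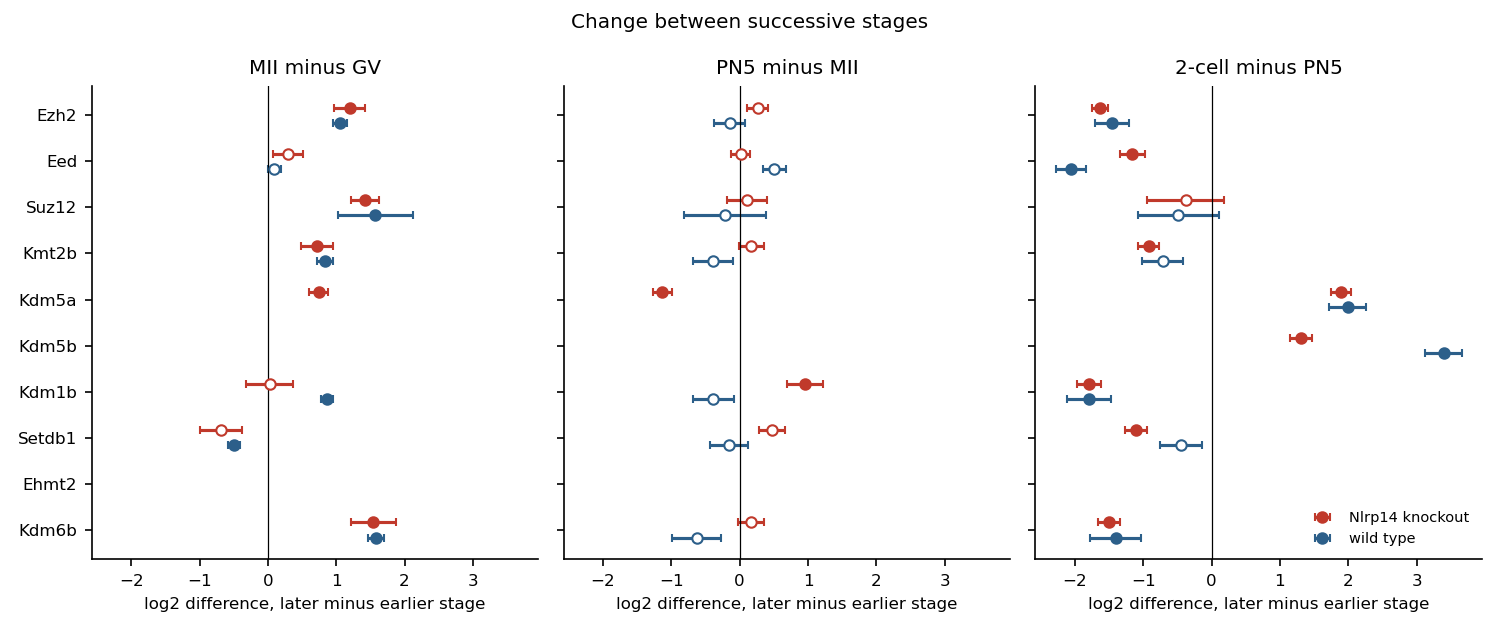
Log2 difference of FPKM + 1 between successive stages, later minus earlier, horizontal axis, for each of the 10 genes in knockout (red, upper) and wild type (blue, lower). Points are estimates and bars 1 standard error (3 libraries per group), filled where the adjusted p was under 0.05 and open otherwise; genes below the minimum level have no point. In the last panel Kdm5b stands at 1.31 in knockout and 3.40 in wild type, and Eed at -1.16 and -2.06.

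The difference between genotypes in this last step was tested directly and passed for 2 of 9 members, where 45.8% of all genes passed. For Kdm5b it was -2.09 (SE 0.30, adjusted p = 0.0003), so that its gain was smaller in the knockout. Kdm5b lay below the minimum level in every PN5 library, so this value restates its difference of -2.12 at the 2-cell stage. For Eed it was 0.90 (SE 0.28, adjusted p = 0.018), so that its loss was smaller in the knockout. Kdm1b had a difference of 0.00 (SE 0.38, adjusted p = 0.99): its higher level in knockout 2-cell embryos came after 42.8 ± 2.49 FPKM in knockout zygotes, against 22.6 ± 10.1 FPKM in wild-type zygotes (SD, n = 3 each). The other members had standard errors from 0.27 to 0.91, all but that of Ezh2 (0.27) above those of Kdm5b and Eed.

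The order of the members by level also differed along the series. Eed had the highest mean in GV oocytes of either genotype (49.9 ± 10.6 FPKM in knockout and 47.5 ± 4.92 FPKM in wild type). In wild-type 2-cell embryos Suz12, Ezh2, Eed and Kdm5b led, at 19.2, 17.9, 16.6 and 12.5 FPKM, and the ranges of neighbouring genes in that order overlapped. In knockout 2-cell embryos Suz12, Eed, Ezh2 and Kdm1b led, at 34.3, 27.4, 18.5 and 11.8 FPKM, with Suz12 and Eed overlapping. The first place of Suz12 came from replicate 1 at 69.2 FPKM, and its other libraries, at 16.5 and 17.3 FPKM, lay below every knockout library of Eed and Ezh2. Kdm5b was 7th in knockout, at 2.06 FPKM, between Kdm5a (2.85 FPKM) and Setdb1 (1.94 FPKM), whose ranges overlapped its own. In wild-type embryos it was 4th. Ehmt2 had the lowest mean in every group other than wild-type 2-cell embryos, where Kmt2b was lowest (1.06 FPKM) and overlapped it.

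Other genes of histone methylation were counted from 6 lists of 59 genes. With limma 0 passed between knockout and wild type at GV (33 tested), MII (36 tested) and PN5 (36 tested). Few of all tested genes passed at those stages either, at 0.043%, 2.28% and 6.1%. In 2-cell embryos 41 were tested: 3 were higher and 20 lower in the knockout, 56.1% together, against 54.3% of all genes. With median-ratio scaling 5 were higher and 15 lower of 39, and with the length trend removed 5 and 15 of 41. Of the 41, 7 entered only through their wild-type libraries and could hardly be other than lower, and 6 of these were called: Ash1l, Suv39h1, Kdm3b, Nsd3, Kdm8 and Kmt5b. Among other PRC2 subunits and H3K27 erasers 2 of 9 tested were higher and 2 lower (3 higher and 1 lower with median-ratio scaling). Ezhip, an inhibitor of PRC2, was at 134 FPKM in knockout and 32.9 FPKM in wild type (log2 2.16, adjusted p = 0.0032), and Mtf2, a subunit that brings PRC2 to CpG islands, at 4.58 and 21.4 FPKM (log2 -2.02, adjusted p = 0.00053). Among H3K4 writers and their partners 1 of 8 was higher and 4 lower. These included Dpy30, a core subunit of those complexes, at 504 FPKM in knockout and 88.3 FPKM in wild type (log2 2.46), and Wdr5, another core subunit, at 8.79 and 37.6 FPKM (log2 -1.94).

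Of the other H3K4 erasers, 1 of 3 was called: Rcor1, the partner of KDM1A, was at 4.47 FPKM in knockout and 14.3 FPKM in wild-type 2-cell embryos (log2 -1.51). Of the H3K9 writers and partners 4 of 6 were lower and 0 higher, among them Trim28, which brings SETDB1 to its targets, at 2.52 FPKM in knockout and 10.3 FPKM in wild type, and the methyltransferase gene Setdb2 (log2 -1.42). Of the H3K9 erasers 4 of 6 were lower (3 lower and 1 higher with median-ratio scaling). Among those lower were Kdm4c, at 0.825 FPKM in knockout and 8.37 FPKM in wild type, and Kdm3a, at 2.42 and 10.1 FPKM. Of the writers and erasers of H3K36, H3K79 and H4K20 5 of 9 were lower (2 of 7 with median-ratio scaling), among them the H3K36 methyltransferase gene Setd2 at 2.36 FPKM in knockout and 14.0 FPKM in wild type and the H4K20 methyltransferase gene Kmt5b at 0.282 and 2.47 FPKM. Of all tested genes 40.3% were lower in FPKM and 26.9% with median-ratio scaling. Suv39h1, Kdm3b, Nsd3, Kdm8 and Kmt5b, counted as lower here, entered the FPKM fit only through their wild-type libraries.

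**Figure D5:**
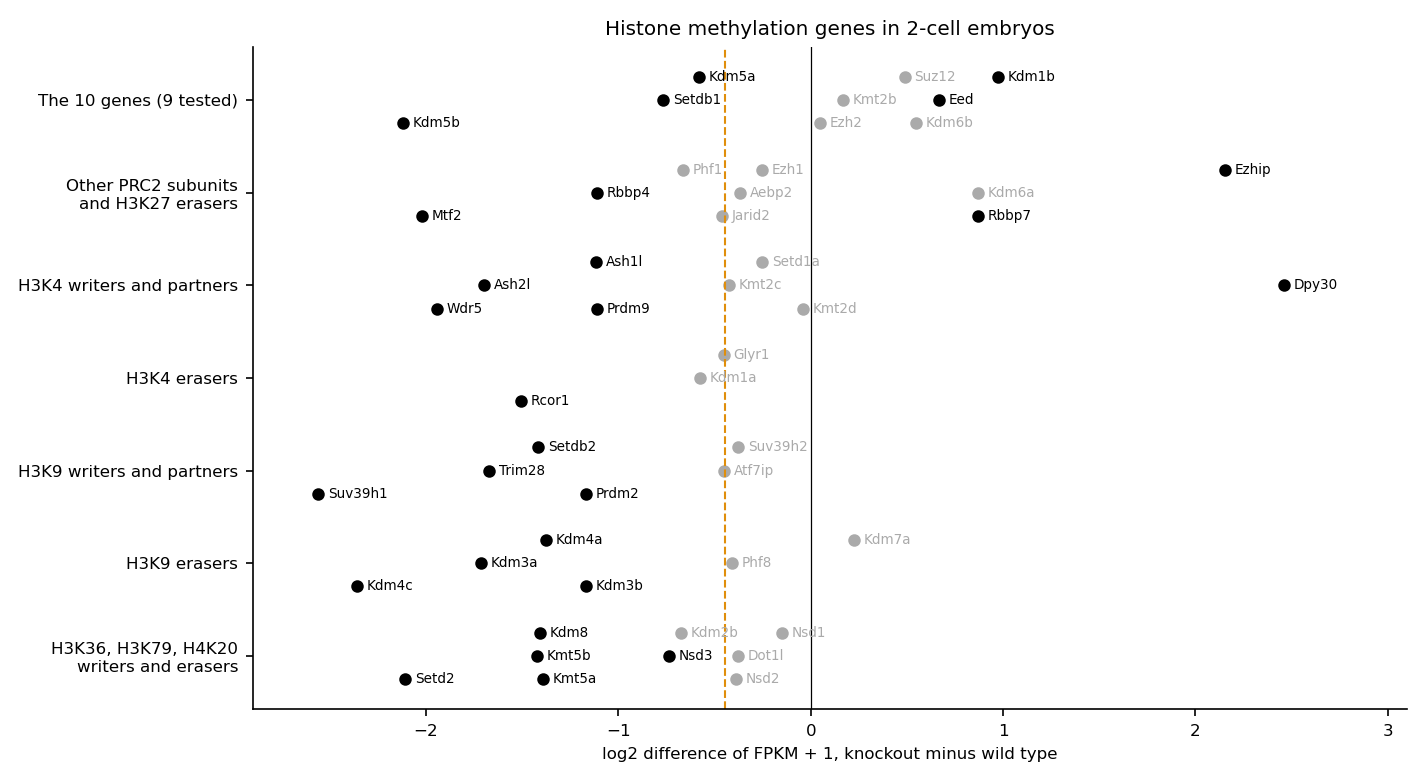
Log2 difference of FPKM + 1, knockout minus wild type, in 2-cell embryos for the 9 tested genes of the set (top row) and the 41 tested genes of 6 further lists. Black marks an adjusted p under 0.05 and grey the others, the dashed line is the median of all tested genes (-0.44), and heights within a row only separate the names. Ezhip, Dpy30 and Rbbp7 stand to the right among the further lists, and 20 genes are black to the left.

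Levels of marker genes moved with genotype in the same 2-cell libraries. The 10 oocyte markers summed to 18265 to 25029 FPKM in knockout embryos, against 5993 to 7849 FPKM in wild-type embryos, mostly through Dppa3. Zp3 went the other way, at a mean of 21.7 FPKM in knockout and 67.1 FPKM in wild type. Padi6 (33.4 and 36.6 FPKM) and Nlrp5 (23.8 and 25.6 FPKM) were slightly lower in knockout. The 8 markers of 2-cell embryos summed to 1100 to 1543 FPKM in knockout and 790 to 952 FPKM in wild type. Tdpoz4, at 5.45 FPKM in knockout and 48.4 FPKM in wild type, and Usp17lc, at 31.7 and 42.3 FPKM, went the other way. The 14 granulosa and cumulus markers summed to 8.97 to 11.2 FPKM in knockout and 33.5 to 47.9 FPKM in wild type, and Amh, Fshr, Inha, Inhba and Ptx3 were at 0 in either. That lower sum came mostly from Tnfaip6 (4.56 and 25.2 FPKM), Nr5a2 (2.32 and 8.77 FPKM) and Amhr2 (0.179 and 5.66 FPKM). Cyp19a1 was higher in knockout (2.71 and 0.759 FPKM). The 9 sperm and spermatid markers summed to 5.09 to 8.71 FPKM in knockout and 11.8 to 23.4 FPKM in wild type, with Tnp2, Acr and Spata18 at 0 in either. That lower sum came from Ldhc, at a mean of 3.66 FPKM in knockout and 15.3 FPKM in wild type. Prm1 was also lower in knockout, and Prm2, Odf1, Tnp1 and Akap4 were higher. The 10 markers of blood, stroma and oviduct summed to 29.4 to 41.6 FPKM in knockout and 107 to 199 FPKM in wild type, through Epcam, Hba-a1 and Krt18, while Hbb-bs was at 0 in either. The part of these marker levels in the differences of the members was not tested.

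Genes with the most similar course were sought by the root mean square difference between centred profiles of 8 group means of log2(FPKM + 1), among 10889 other protein-coding genes. Aqp11 (0.079) and Gm12845 (0.09) were nearest to Kdm5b, Clk2 (0.113) and Rgs17 (0.119) to Ezh2, and St6galnac3 (0.217) and Patj (0.224) to Kdm1b. Kdm5a had no gene closer than Ciao2a (0.244). Within the set, Ezh2 and Kdm6b had the most similar profiles (0.234), and Eed and Kdm1b were each other's nearest member (0.380). These values describe 8 means that share libraries, and no test was made of them.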

How the data were processed

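Per the labels' protocols, pools of 5 oocytes or embryos were lysed and their RNA made into cDNA with the SMART-Seq HT kit. The authors deposited an FPKM value per Ensembl gene for each library, and no other scaling is stated. Per the submitters' processing notes, StringTie and GRCm38 were used. The aligner, annotation, strandedness and filters: not given in the sources used here. Symbols came from GENCODE M21, which matched 55227 of 55487 identifiers (260 did not match). Depth was inferred from the step between low FPKM values of 34257 genes with a single transcript, of which 98.8 to 99.2% were whole multiples (tolerance 0.02); precision was limited by 3 libraries per group. No pair of libraries was identical.

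Each comparison was fitted on log2(FPKM + 1) in limma 3.58.1 (R 4.3.3; files read by data.table, version 1.17.8), with a mean per group and moderated variances with trend and robust settings. Compared were the genotypes within a stage, successive stages within a genotype, and the difference between genotypes in each step. Tested genes reached 1 FPKM in 3 or more of the libraries fitted, and p-values were adjusted over all of them by the method of Benjamini and Hochberg. The fit was checked on simulated data. Of the further lists, at most the 2 genes with the smallest adjusted p among those called were named, all where 2 or fewer were called. The members and lists were chosen with earlier results of these data known. Alternatives were median-ratio scaling, TPM, removal of the length trend (loess span 0.5), a pseudocount of 0.1, no minimum level, a mean of at least 5 FPKM, all 24 libraries in one fit, a replicate block, and leaving out each library. Python 3.11.15, pandas 2.3.3, numpy 2.4.6 and matplotlib 3.10.9 were used for joins, sequences and figures.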

Additional observations from a re-analysis of the deposited data

Results flagged for a closer look

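For 2 genes the knockout difference at the 2-cell stage differed from that at PN5 in a direct test. Kdm5b had a knockout difference lower by 2.09 at the 2-cell stage than at PN5 (log2 value -2.09, adjusted p = 0.0003): it was at 2.06 ± 0.415 FPKM in knockout and 12.5 ± 3.35 FPKM in wild-type 2-cell embryos, and at 0.23 ± 0.0785 and 0.256 ± 0.0377 FPKM in zygotes (SD, n = 3 each). Since Kdm5b was below the minimum level in all zygotes, this restates its difference at the 2-cell stage. It stood without each of the 12 libraries and in all 7 other settings in which the gene was tested. For Eed the same difference was 0.90 (adjusted p = 0.018), from 27.4 ± 6.37 FPKM in knockout and 16.6 ± 1.40 FPKM in wild-type 2-cell embryos and 61.4 ± 1.41 and 72.6 ± 9.11 FPKM in zygotes. It stood without each library (adjusted p 0.0047 to 0.047) and in 7 of 8 other settings (adjusted p 0.0031 to 0.12).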

How the results depend on the processing

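Between knockout and wild type at GV and MII, 0 members passed under each of the 8 other settings. Leaving out single libraries gave 0 to 1 at GV, 0 to 1 at MII, 0 to 2 at PN5 and 2 to 3 at the 2-cell stage. Of all tested genes 0.0089 to 8.97% passed in these fits at GV and 0.036 to 36.2% at MII. The shares were 0.011 to 32.9% at PN5 and 40.1 to 49.8% at the 2-cell stage. At PN5, 1 member passed with all 24 libraries in one fit (Kdm1b), where 12.2% of all tested genes did. At the 2-cell stage 3 passed with a mean of at least 5 FPKM, where fewer genes are tested and 63.7% of them passed. With a replicate block 3 passed, where 50.7% of all tested genes did. There 6 passed with the length trend removed, where 51.1% of all tested genes did (Ezh2, Eed, Kmt2b, Kdm1b and Kdm6b higher, Kdm5b lower). With TPM (47.3% of all tested genes) and with no minimum level (20.7%) 4 passed in each, Kdm5b, Kdm1b, Setdb1 and Ehmt2. In the TPM fit Ehmt2 entered only through its wild-type libraries, the group where it was higher. Deviations of same-numbered libraries from their group means had correlations of -0.40 to 0.52 across genes, and no comparison had all 3 above 0.1. With 3 libraries per group these values cannot exclude a pairing, and the labels do not state one. The main fits did not pair the pools. Between stages in knockout, a mean of at least 5 FPKM gave 3 for MII against GV (75.2% of all tested genes). It gave 1 for PN5 against MII (36.5%) and 4 for the 2-cell stage against PN5 (78.7%). PN5 against MII in knockout also gave 1 with median-ratio scaling (30.9%), with the length trend removed (31.0%) and with no minimum level (6.63%). The genotype difference in PN5 against MII gave 1 with median-ratio scaling (8.94%), 1 with a mean of at least 5 FPKM (24.2%) and 2 with all libraries (6.56%). That in the 2-cell stage against PN5 gave 1 with a mean of at least 5 FPKM (49.5%). Without single libraries 5 to 6 members passed in wild type for MII against GV (76.3 to 82.98% of all tested genes). For PN5 against MII 0 to 2 passed (360 of 8880 to 2632 of 8781 tested genes). For the 2-cell stage against PN5 3 to 9 passed (37.5 to 64.9%). In the same order, these ranges in knockout were 3 to 5 (52.6 to 65.3%), 1 to 2 (14.5 to 50.1%) and 6 to 8 (61.9 to 65.3%). For the genotype differences they were 0 to 0 (0.0082 to 0.98%), 0 to 4 (0 to 41.4%) and 2 to 2 (35.3 to 49.6%).

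No called member reversed in any setting. Differences that did not pass changed sign in 13 cases, and the cause was not tested. With median-ratio scaling, Ezh2 (0.082), Kmt2b (0.015) and Kdm6b (0.10) changed sign at MII. With the length trend removed, so did Ezh2 (0.094), Kmt2b (0.10) and Kdm6b (0.13) at MII, Kmt2b (0.11) and Kdm6b (0.045) at GV and Ezh2 (-0.013) at PN5. With TPM, so did Eed at GV (-0.031) and at PN5 (0.016), Suz12 at MII (-0.11) and Setdb1 at PN5 (0.11). Leaving out 1 library at a time gave 9 more such cases, over these ranges: at GV Eed -0.11 to 0.18, Suz12 -0.50 to 0.58, Kmt2b -0.19 to 0.12 and Kdm6b -0.30 to 0.23; at PN5 Suz12 -0.42 to 0.79 and Setdb1 -0.40 to 0.067; at the 2-cell stage Ezh2 -0.0073 to 0.087 and Suz12 -0.17 to 0.83.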
